A study of Mus musculus with 2 samples.

Results

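The genes described here are 47 ligands, receptors, antagonists, latent binding proteins, Smads and target genes of bone morphogenetic protein (BMP), activin and transforming growth factor beta (TGF-beta) signalling, chosen by symbol. All 47 are among the 23233 genes of the deposited table. The study stained cells of ventral skin from wild-type C57BL/6 mice aged 7 days for ZIP10, a zinc importer, and sorted them by flow cytometry. Each population, ZIP10-positive and ZIP10-negative cells, gave 1 library of polyadenylated RNA, so there is no replicate, no test and no p-value, and every difference describes these 2 libraries. The sample titles place the cells in hair follicles, while the protocol starts from minced skin, and no source used here gives the number of animals or any pooling. The labels name no marker of a single cell type for the sort, so each library mixes cell types, and in such a mixture fewer cells of a type and less RNA per cell cannot be told apart.

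BMPs, activins and TGF-betas are secreted dimers that bring together type I and type II serine/threonine kinase receptors, and the type I receptor then phosphorylates Smad proteins. Smad1, Smad5 and Smad9 carry the BMP signal and Smad2 and Smad3 the TGF-beta and activin signal, each with the shared partner Smad4, while Smad6 and Smad7 inhibit the pathway and are themselves induced by it. In skin, BMPs restrain hair follicle stem cells and are needed for differentiation of the hair shaft, and noggin, which traps BMPs, favours follicle formation and growth. TGF-beta is secreted in a latent complex tied to the matrix by latent TGF-beta binding proteins.

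Values are in RPKM, reads relative to transcript length and to the sequenced total, as the authors deposited them. As deposited, Slc39a10, the gene of ZIP10, stood at 49.4 RPKM in ZIP10-positive cells, against 11.1 RPKM in ZIP10-negative cells, the direction of the sort. The estimated depth was 2780000 reads for ZIP10-positive cells and 2710000 for ZIP10-negative cells. Of the RPKM sum, globin genes held 3.46% in ZIP10-positive cells and 59.4% in ZIP10-negative cells. Over 9620 genes at 1 RPKM or more in both libraries the median ratio of ZIP10-positive to ZIP10-negative was 1.97. A gene is therefore also given relative to this median gene, that is, after the ratio of 1.97 was divided between the libraries. Intervals are exact 95% binomial intervals from estimated read numbers and cover counting error only.

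Of the 47 genes, 41 reached 1 RPKM in at least 1 library. As deposited, 34 of these 41 were higher and 7 lower in ZIP10-positive cells, and on the log2(RPKM + 1) scale 12 were higher by 2-fold or more and none lower by as much. Of all 12249 genes that reached 1 RPKM, 44.1% were higher and 3.55% lower by 2-fold or more. Most of these genes were also higher as deposited, since their median log2 ratio was 0.87. Set against the median gene, Tgfbi and Acvr2b, 2 members, were higher by 2-fold or more, and Ltbp1, Nog, Smad6 and Bmp3, 4 members, lower by 2-fold or more. These are 4.88% and 9.76% of the 41, against 14.7% and 11.4% of all genes. The members' median log2 ratio was 0.71 as deposited and -0.18 relative to the median gene, and that of all genes 0.87 and 0.09. In all 14 members lay above the median gene and 27 below it. Of all genes, 45.4% lay below Bmp4, which was close to the median gene at a log2 ratio of -0.003. Both counts change with the pseudocount: without its damping of low values, at 0.1 in place of 1, there were 4 higher and 7 lower members, against 20.6% higher and 16.1% lower of all genes.

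The classes differed in where they lay. The median log2 ratio relative to the median gene was 0.81 for the 5 targets, -0.01 for the 8 measured Smads and Skil, -0.22 for 9 receptors, -0.29 for 11 ligands, -0.36 for 5 antagonists and -0.75 for 3 latent binding proteins. The targets had the highest and the latent binding proteins the lowest median under each of the 4 scalings tried, and the sign of each median other than that of the targets followed the scaling. Against genes of the same transcript length class the median of the targets was 0.11, beside 0.10 for receptors and 0.07 for Smads and Skil.

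**Figure D1:**
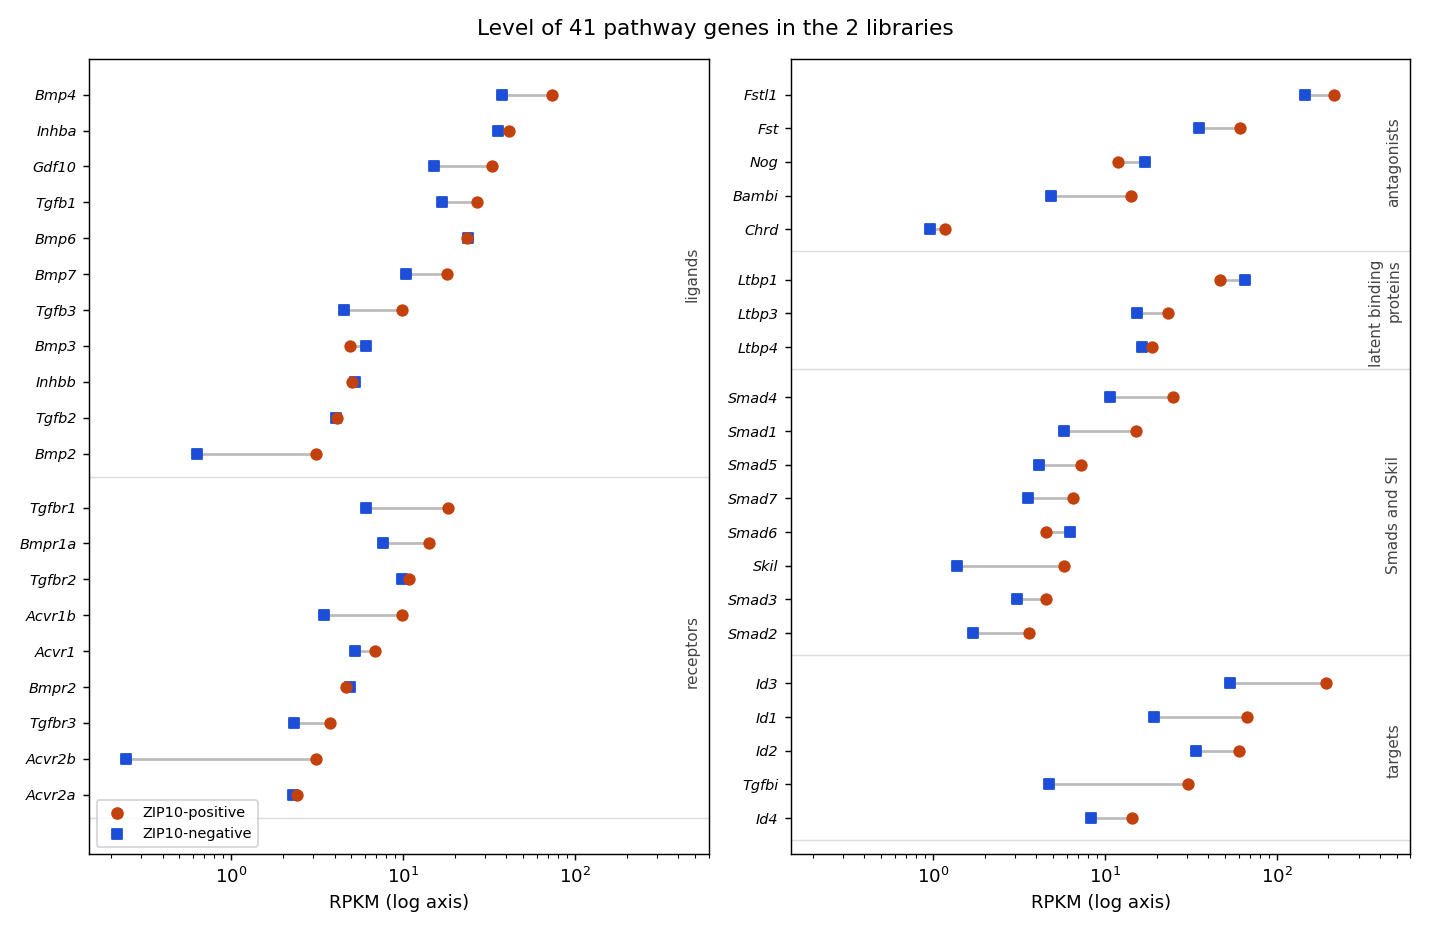
RPKM (log axis) of the 41 members that reached 1 RPKM, by class, in ZIP10-positive cells (circles) and ZIP10-negative cells (squares), 1 library each with no error bar. Most circles lie to the right of their squares; Nog, Ltbp1, Smad6 and Bmp3 lie to the left.

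Among the targets, Id1 and Id3 were over 3-fold higher in ZIP10-positive cells and Tgfbi over 6-fold, while Id2 and Id4 kept near the median gene. Id proteins are helix-loop-helix factors without a DNA-binding region that block their partners, and they are direct targets of BMP Smads. Id3 was the most abundant, with 193 RPKM in ZIP10-positive cells, against 53.6 RPKM in ZIP10-negative cells, a ratio of 3.60 (3.01 to 4.31). Id1 had 67.6 RPKM in ZIP10-positive cells, against 19.3 RPKM in ZIP10-negative cells, a ratio of 3.51 (2.46 to 5.22). Relative to the median gene these are 1.83-fold (1.53 to 2.19) and 1.78-fold (1.25 to 2.65), under the 2-fold limit. Id2 had 60.5 RPKM in ZIP10-positive cells, against 34.1 RPKM in ZIP10-negative cells, and Id4 14.3 RPKM (ZIP10-positive) and 8.34 RPKM (ZIP10-negative), ratios of 1.77 and 1.71 whose intervals include the median gene. Id1 has a short transcript, and against genes of its own length class, described further on, its log2 ratio was 0.11, while that of Id3 was 0.51.

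Tgfbi encodes a secreted matrix protein, induced by TGF-beta, that binds integrins and collagens. It stood at 30.3 RPKM in ZIP10-positive cells, against 4.76 RPKM in ZIP10-negative cells, a ratio of 6.37 (4.44 to 9.69) and 3.23-fold (2.25 to 4.92) relative to the median gene. Its log2 ratio lay at percentile 94.3 of all genes compared. Macrophages are among the cells known to express Tgfbi, and macrophage genes moved the same way: the 8 macrophage and monocyte markers summed to 1132 RPKM in ZIP10-positive cells, against 49.3 RPKM in ZIP10-negative cells. Lyz2 alone held 772 RPKM in ZIP10-positive cells against a listed 0, and without it the sums were 360.3 RPKM in ZIP10-positive cells, against 49.3 RPKM in ZIP10-negative cells. Among them Lyz2, Mrc1, C1qa and C1qb had a listed 0 for ZIP10-negative cells, while Csf1r, Cd68, Emr1 and Tyrobp were detected in both libraries and higher in ZIP10-positive cells. Dermal fibroblast markers, another class of cells that makes matrix, summed to 553 RPKM (ZIP10-positive) and 456 RPKM (ZIP10-negative). That sum hides opposite movements: Col1a1 had 97.9 RPKM (ZIP10-positive) and 168 RPKM (ZIP10-negative), while Dpt had 8.78 RPKM (ZIP10-positive) and 1.03 RPKM (ZIP10-negative), and Lum 7.29 RPKM (ZIP10-positive) and 1.18 RPKM (ZIP10-negative). The part of either cell type in the Tgfbi value was not tested.

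Promoters are shown for a pair of targets that were higher, Id3 and Tgfbi, and for Smad6, an inhibitor and known target that was lower, so that their letters can be set beside the values. They are the bases before the annotated start in RefSeq on GRCm38.p6, a later build than the mm9 named for the files, at chr4:136143572-136143821 on the plus strand, chr13:56609336-56609585 on the plus strand and chr9:64022086-64022309 on the minus strand. Capitals mark CAGAC, the short Smad box, and GGCGCC, a GC-rich element bound by BMP Smads, both searched on both strands.
Id3: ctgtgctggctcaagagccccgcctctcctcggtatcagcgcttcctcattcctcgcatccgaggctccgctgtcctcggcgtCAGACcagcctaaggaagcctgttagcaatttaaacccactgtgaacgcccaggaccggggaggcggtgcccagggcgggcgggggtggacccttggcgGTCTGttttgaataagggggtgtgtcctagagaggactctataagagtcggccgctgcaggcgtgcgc
Tgfbi: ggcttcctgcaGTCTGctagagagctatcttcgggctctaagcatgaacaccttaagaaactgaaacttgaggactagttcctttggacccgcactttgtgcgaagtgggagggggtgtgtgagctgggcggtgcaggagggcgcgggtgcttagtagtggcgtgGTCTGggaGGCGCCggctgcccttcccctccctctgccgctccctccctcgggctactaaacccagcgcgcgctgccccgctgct
Smad6: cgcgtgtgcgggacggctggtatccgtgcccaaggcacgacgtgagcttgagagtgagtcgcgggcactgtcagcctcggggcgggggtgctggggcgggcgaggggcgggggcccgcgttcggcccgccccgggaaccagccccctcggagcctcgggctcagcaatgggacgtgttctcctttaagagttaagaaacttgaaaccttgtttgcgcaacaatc
CAGAC occurred 2 times in the Id3 and 2 times in the Tgfbi stretch, and GGCGCC 1 time in that of Tgfbi, while neither was in these 224 bases of Smad6. Lower members also held the letters: CAGAC occurred 2 times in the promoter of Ltbp1 and 2 times in that of Tgfb2. Over the 250 bases before the start, CAGAC stood in 17 of 34 members with a promoter entry, or 50.0%, against 45.8% of 27025 genes. GGCGCC stood in 11 of 34, or 32.4%, against 10.8% of all; it is made of G and C alone, and base composition was not matched. Such matches describe letters and are not sites.

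Smad1 of the BMP arm and the shared Smad4 were more than 2-fold higher as deposited, and the inhibitor Smad6 was lower. Smad4 had 24.8 RPKM in ZIP10-positive cells, against 10.7 RPKM in ZIP10-negative cells, a ratio of 2.33 (1.82 to 3.01). Smad1 had 15.2 RPKM (ZIP10-positive) and 5.83 RPKM (ZIP10-negative), a ratio of 2.60 (1.83 to 3.72). Both intervals include the median gene. Smad5 had 7.26 RPKM in ZIP10-positive cells, against 4.15 RPKM in ZIP10-negative cells, and Smad9 was listed at 0 in ZIP10-positive and at 0.143 RPKM in ZIP10-negative cells, so Smad1 and Smad5 made up nearly all the transcript of the BMP-type Smads. Of the TGF-beta type, Smad2 had 3.61 RPKM in ZIP10-positive cells, against 1.71 RPKM in ZIP10-negative cells, and Smad3 4.56 RPKM (ZIP10-positive) and 3.09 RPKM (ZIP10-negative), and neither interval left out the median gene.

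The inhibitory Smads parted. Smad6, which acts mainly on the BMP arm, had 4.54 RPKM in ZIP10-positive cells, against 6.25 RPKM in ZIP10-negative cells, a ratio of 0.726 (0.455 to 1.15) from about 35 reads in ZIP10-positive and 47 in ZIP10-negative cells. As deposited that interval includes equal levels, but relative to the median gene the ratio was 0.369 (0.231 to 0.583). Smad7, which inhibits both arms, had 6.53 RPKM in ZIP10-positive cells, against 3.56 RPKM in ZIP10-negative cells, close to the median gene at a relative ratio of 0.930. Skil, a co-repressor that binds Smads, had 5.80 RPKM in ZIP10-positive cells, against 1.39 RPKM in ZIP10-negative cells, a ratio of 4.19 (2.13 to 9.56). It was 2.12-fold (1.08 to 4.85) above the median gene without a pseudocount, and under 2-fold with it.

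**Figure D2:**
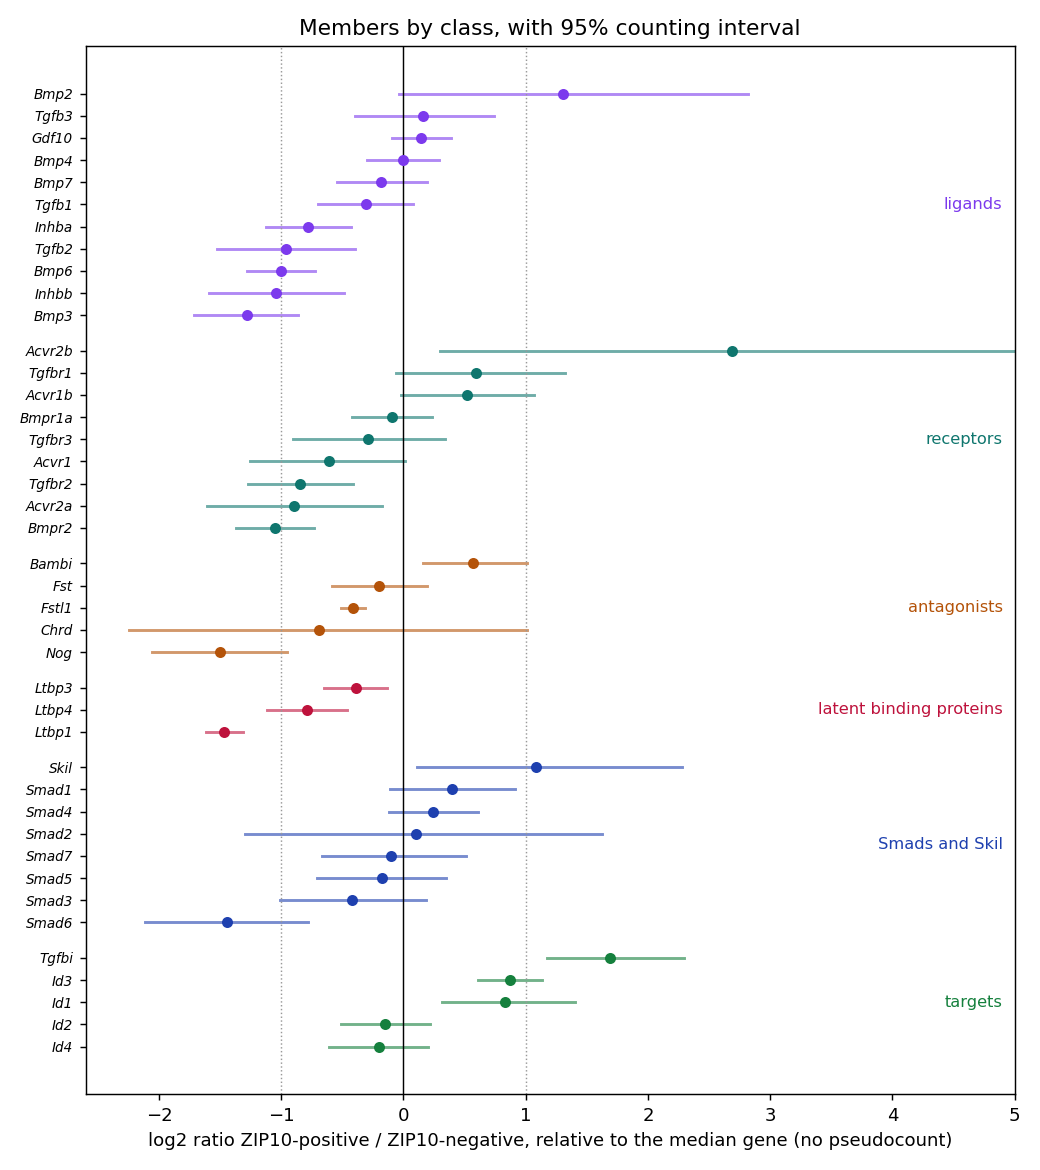
Ratio of ZIP10-positive to ZIP10-negative cells relative to the median gene (log2, no pseudocount) for the 41 members by class; points are the values, bars the exact 95% counting intervals, and dotted lines 2-fold. The bars of Tgfbi, Id1, Id3, Bambi, Skil and Acvr2b lie wholly right of 0, and that of Acvr2b runs past the right edge. Wholly left of 0 lie those of Nog, Ltbp1, Smad6, Bmp3, Bmp6, Tgfb2, Inhba, Inhbb, Bmpr2, Acvr2a, Tgfbr2, Fstl1, Ltbp3 and Ltbp4.

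Of the ligands, Bmp4 was the most abundant and lay at the median gene, while activin subunits, Bmp6, Bmp3 and Tgfb2 lay below it. Bmp4, made in the dermal papilla and hair matrix in the skin, had 73.7 RPKM in ZIP10-positive cells, against 37.5 RPKM in ZIP10-negative cells, a relative ratio of 0.998 (0.815 to 1.22). Gdf10, a BMP3-related factor, had 33.0 RPKM in ZIP10-positive cells, against 15.2 RPKM in ZIP10-negative cells, and Bmp7 18.1 RPKM (ZIP10-positive) and 10.4 RPKM (ZIP10-negative). Both intervals include the median gene.

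Bmp6, a ligand of the skin with effects on keratinocyte differentiation, had 23.6 RPKM in ZIP10-positive cells, against 24.0 RPKM in ZIP10-negative cells, a relative ratio of 0.498 (0.413 to 0.604). An exon of Bmp6 overlaps Txndc5 on the other strand, which had 55.7 RPKM (ZIP10-positive) and 22.3 RPKM (ZIP10-negative), and reads there cannot be told apart unless counting used strand. Bmp3, known as an inhibitory BMP in bone, had 4.94 RPKM in ZIP10-positive cells, against 6.08 RPKM in ZIP10-negative cells, a relative ratio of 0.412 (0.305 to 0.550). Bmp2 went the other way at a low level, with 3.11 RPKM in ZIP10-positive cells, against 0.637 RPKM in ZIP10-negative cells. Its relative ratio of 2.47 rests on about 29 reads in ZIP10-positive and 6 in ZIP10-negative cells, and its interval of 0.976 to 7.05 includes the median gene. Bmp8a stood at 0.416 RPKM (ZIP10-positive) and 0.170 RPKM (ZIP10-negative), is closely related to Bmp8b, and was not compared, and Bmp5 was listed at 0 in both libraries.

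The TGF-beta genes were not alike. Tgfb1, the isoform of leukocytes and many other cells, had 27.0 RPKM in ZIP10-positive cells, against 16.9 RPKM in ZIP10-negative cells, a relative ratio of 0.808 (0.616 to 1.06). Tgfb3 had 9.93 RPKM in ZIP10-positive cells, against 4.51 RPKM in ZIP10-negative cells, a relative ratio of 1.12 (0.758 to 1.67). Tgfb2, known in follicle growth and regression, had 4.13 RPKM (ZIP10-positive) and 4.07 RPKM (ZIP10-negative), nearly equal as deposited and 0.515 (0.347 to 0.760) relative to the median gene.

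Activin subunit genes were also nearly equal as deposited. Inhba, the subunit of activin A, had 41.2 RPKM in ZIP10-positive cells, against 35.8 RPKM in ZIP10-negative cells, and Inhbb, that of activin B, 5.05 RPKM (ZIP10-positive) and 5.27 RPKM (ZIP10-negative). Their relative ratios were 0.583 (0.458 to 0.743) and 0.486 (0.332 to 0.714).

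Receptors separated in part by type. Tgfbr1 and Acvr1b, type I receptors, were above the median gene in ZIP10-positive cells, and type II receptors other than Acvr2b below it. The type I receptors Bmpr1a and Acvr1 also lay below the median gene. Against genes of the same length class, described further on, log2 ratios were 0.19 for Tgfbr1 and 0.63 for Acvr1b. They were -0.73 for Tgfbr2, -0.47 for Bmpr2 and -0.44 for Acvr2a. Tgfbr1, the type I receptor of TGF-beta, had 18.2 RPKM in ZIP10-positive cells, against 6.13 RPKM in ZIP10-negative cells, a ratio of 2.97 (1.89 to 4.92). Acvr1b, the type I receptor of activin, had 9.82 RPKM (ZIP10-positive) and 3.47 RPKM (ZIP10-negative), a ratio of 2.83 (1.94 to 4.13). Both intervals include the median gene, but the fewest whole reads that give the Tgfbr1 ratio, 277 in ZIP10-positive and 91 in ZIP10-negative cells, place it at 1.18 to 1.93 relative to the median gene, which leaves it out.

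The BMP receptor Bmpr1a had 14.2 RPKM in ZIP10-positive cells, against 7.67 RPKM in ZIP10-negative cells, slightly below the median gene at a relative ratio of 0.936. Acvr1, another BMP type I receptor, had 6.84 RPKM (ZIP10-positive) and 5.30 RPKM (ZIP10-negative), a relative ratio of 0.655 (0.418 to 1.01). Bmpr1b was listed at 0 in both libraries. Bmpr1a was thus the higher of the BMP type I receptors listed above 0 among the members.

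Among type II receptors, Tgfbr2 had 10.8 RPKM in ZIP10-positive cells, against 9.88 RPKM in ZIP10-negative cells, Bmpr2 4.67 RPKM (ZIP10-positive) and 4.90 RPKM (ZIP10-negative), and Acvr2a 2.43 RPKM (ZIP10-positive) and 2.29 RPKM (ZIP10-negative). As deposited these were within 1.10-fold of equal, and relative to the median gene they had ratios of 0.556 (0.414 to 0.751), 0.484 (0.388 to 0.602) and 0.539 (0.329 to 0.885). Acvr2a shares exon bases with Orc4 on the other strand, at 5.91 RPKM in ZIP10-positive cells, against 1.92 RPKM in ZIP10-negative cells. Acvr2b, an activin type II receptor, had 3.12 RPKM in ZIP10-positive cells, against 0.246 RPKM in ZIP10-negative cells. The fewest whole reads that give its ratio of 12.7 are 13 in ZIP10-positive and 1 in ZIP10-negative cells, with an interval of 1.90 to 539 that includes the median gene. Reads estimated from its length, 16 in ZIP10-positive and 1 in ZIP10-negative cells, give 2.42 to 655, which does not, so the call rests on a single read in ZIP10-negative cells. Tgfbr3, the co-receptor betaglycan, had 3.75 RPKM (ZIP10-positive) and 2.33 RPKM (ZIP10-negative), a relative ratio of 0.816.

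The 4 ligand-binding antagonists compared lay below the median gene, and noggin was the lowest of them. Nog, which traps Bmp2 and Bmp4, had 11.9 RPKM in ZIP10-positive cells, against 17.1 RPKM in ZIP10-negative cells, a ratio of 0.695 (0.475 to 1.02) from about 50 reads in ZIP10-positive and 70 in ZIP10-negative cells. Relative to the median gene this was 0.353 (0.241 to 0.516), at percentile 5.60 of all genes. Fst, the activin trap follistatin, had 60.9 RPKM in ZIP10-positive cells, against 35.6 RPKM in ZIP10-negative cells, a relative ratio of 0.870 (0.667 to 1.15). Fstl1, a secreted follistatin-related glycoprotein of mesenchymal cells, was the most abundant member at 216 RPKM (ZIP10-positive) and 146 RPKM (ZIP10-negative), a relative ratio of 0.751 (0.702 to 0.804). Chrd, chordin, was near the limit of detection at 1.17 RPKM (ZIP10-positive) and 0.959 RPKM (ZIP10-negative), and Grem1, gremlin, was listed at 0 in both libraries. Bambi, a pseudoreceptor that lacks the kinase and blunts signalling at the membrane, had 14.3 RPKM in ZIP10-positive cells, against 4.87 RPKM in ZIP10-negative cells, a ratio of 2.93 (2.21 to 3.97) and 1.48-fold (1.12 to 2.01) relative to the median gene.

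Latent TGF-beta binding proteins were the class with the lowest median. Ltbp1 had 46.5 RPKM in ZIP10-positive cells, against 65.1 RPKM in ZIP10-negative cells, a ratio of 0.714 (0.644 to 0.793) from about 639 reads in ZIP10-positive and 872 in ZIP10-negative cells. This interval lies below equal levels even as deposited, and the relative ratio was 0.362 (0.327 to 0.402). Ltbp3 had 23.2 RPKM in ZIP10-positive cells, against 15.4 RPKM in ZIP10-negative cells, and Ltbp4 18.9 RPKM (ZIP10-positive) and 16.6 RPKM (ZIP10-negative), relative ratios of 0.763 and 0.579. Ltbp2, which binds fibrillin rather than latent TGF-beta, was listed at 0 in ZIP10-positive and at 0.173 RPKM in ZIP10-negative cells.

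Ratios between members within a library do not depend on how the libraries are scaled. In pairs chosen after their values were seen, noggin stood to Bmp4 at 0.162 in ZIP10-positive and 0.458 in ZIP10-negative cells, 2.83-fold (1.83 to 4.36) more noggin per Bmp4 in the ZIP10-negative library. Smad6 stood to Smad1 at 0.299 in ZIP10-positive and 1.07 in ZIP10-negative cells, and the ratio of Ltbp1 to Ltbp3 in ZIP10-positive cells was 0.475 times (0.387 to 0.585) that in ZIP10-negative cells. Id3 stood to Id2 at 3.18 in ZIP10-positive and 1.57 in ZIP10-negative cells, 2.03-fold (1.48 to 2.77) apart. These 4 shifts exceeded counting error, and transcript lengths within each of these pairs differed by at most 4.31%. The ratio of Smad7 to Smad3, at 1.43 in ZIP10-positive and 1.15 in ZIP10-negative cells, did not, with an interval of 0.695 to 2.27 around its 1.24-fold difference, and Id3 stood to Id1 at 2.85 in ZIP10-positive and 2.78 in ZIP10-negative cells, also within counting error; lengths in these pairs differed by 19.0% and 36.8%.

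Receptor pairs also shifted, but their transcripts differed more in length. Tgfbr1 stood to Tgfbr2 at 1.68 in ZIP10-positive and 0.621 in ZIP10-negative cells, a 2.71-fold difference (1.56 to 4.88). Acvr1b stood to Acvr2a at 4.05 in ZIP10-positive and 1.52 in ZIP10-negative cells, and Bmpr1a to Bmpr2 at 3.03 in ZIP10-positive and 1.56 in ZIP10-negative cells. Over all genes the ratio fell with transcript length, as described further on. By the lengths used, the type II transcript is the longer in each of these 3 pairs, by 103%, 28.7% and 117% in that order. For Tgfbr1 that length is the shortest linked to RefSeq, 1713 bases. It gives 77 reads in ZIP10-positive and 25 in ZIP10-negative cells, on which the interval of that pair rests. The fewest whole reads of Tgfbr1, 277 in ZIP10-positive and 91 in ZIP10-negative cells, exceed these, so the order of length in that pair is unsure.

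Other genes of the pathway, from lists of 75 symbols, were spread around the median gene. Of 49 that reached 1 RPKM, 5 were higher and 5 lower than the median gene by 2-fold or more, 10.2% each against the 14.7% and 11.4% of all genes, with a median log2 ratio of 0.04. Sostdc1, a BMP and WNT antagonist of the follicle, had 192 RPKM in ZIP10-positive cells, against 40.7 RPKM in ZIP10-negative cells, opposite to noggin. Nbl1, a further BMP-binding protein, had 27.2 RPKM (ZIP10-positive) and 9.69 RPKM (ZIP10-negative), and Twsg1, another, 26.3 RPKM (ZIP10-positive) and 18.0 RPKM (ZIP10-negative). In that antagonist list Sostdc1 and Chrdl2 were at least 2-fold higher.

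Among 9 other targets Tagln alone was at least 2-fold higher relative to the median gene, at 84.5 RPKM in ZIP10-positive cells, against 10.1 RPKM in ZIP10-negative cells. It is also a smooth muscle gene, and the 6 pericyte and smooth muscle markers summed to 80.1 RPKM (ZIP10-positive) and 50.2 RPKM (ZIP10-negative). Of these markers 4 were higher and 2 lower as deposited. Relative to the median gene, 2 lay above and 4 below, with a median log2 ratio of -0.44. Acta2 had 47.9 RPKM (ZIP10-positive) and 16.8 RPKM (ZIP10-negative). Those lower as deposited were Rgs5, at 14.1 RPKM (ZIP10-positive) and 15.4 RPKM (ZIP10-negative), and Pdgfrb, at 10.0 RPKM (ZIP10-positive) and 12.2 RPKM (ZIP10-negative). The part of these cells in the Tagln value was not tested. Cdkn1a, a cell cycle inhibitor induced by TGF-beta, had 60.6 RPKM (ZIP10-positive) and 19.3 RPKM (ZIP10-negative), and Msx2, a BMP-induced homeobox gene of the hair matrix, 34.8 RPKM (ZIP10-positive) and 9.96 RPKM (ZIP10-negative). In this list 7 of the 9 were above the median gene, with a median log2 ratio of 0.32, and Postn and Hey1 were below it at -0.69 and -0.38. These values do not allow for transcript length. Cdkn1a, at 0.65 with 922 bases, and Cdkn2b, at 0.18 with 1390 bases, lay below their length class medians of 0.70 and 0.35. Tagln, at 2.01 with 1595 bases, and Msx2, at 0.78 with 2453 bases, lay above theirs of 0.35 and 0.09.

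In the list for release of latent TGF-beta and for matrix, 3 of 8 were at least 2-fold lower and none higher, against 11.4% lower and 14.7% higher of all genes. Fbn1, the fibrillin to which latent complexes attach, had 10.9 RPKM in ZIP10-positive cells, against 15.4 RPKM in ZIP10-negative cells, as for Ltbp1 in direction. Fbn2 had 2.10 RPKM (ZIP10-positive) and 3.33 RPKM (ZIP10-negative). Fbn1, with 9847 bases, and Fbn2, with 11041 bases, have long transcripts. Among genes of 6000 bases or more the median log2 ratio was -0.39, and 17.4% were at least 2-fold lower. Lrrc32, which presents latent TGF-beta on regulatory T cells and platelets, was listed at 0 in ZIP10-positive cells. In ZIP10-negative cells it stood at 1.53 RPKM, from about 15 reads. The 5 T cell markers summed to 85.8 RPKM in ZIP10-positive cells, against 619 RPKM in ZIP10-negative cells. Bgn, a small proteoglycan that binds TGF-beta, had 149 RPKM (ZIP10-positive) and 82.2 RPKM (ZIP10-negative), and Dcn, another, 144 RPKM (ZIP10-positive) and 43.9 RPKM (ZIP10-negative).

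Of 14 intracellular modulators 1 was at least 2-fold higher, Tgif2, and 1 lower, Usp15. Fkbp1a, which holds type I receptors inactive, was the most abundant at 180 RPKM in ZIP10-positive cells, against 50.5 RPKM in ZIP10-negative cells. The 4 other receptors and co-receptors that reached 1 RPKM had none beyond 2-fold; Rgma, a BMP co-receptor, had 14.2 RPKM (ZIP10-positive) and 7.51 RPKM (ZIP10-negative), and its relative Rgmb 11.7 RPKM (ZIP10-positive) and 7.12 RPKM (ZIP10-negative). The 19 other ligands were low, with 9 listed at 0 in both libraries, 5 compared, and Lefty1 the highest at 2.69 RPKM (ZIP10-positive) and 1.31 RPKM (ZIP10-negative). Of these 5 Inha was at least 2-fold higher, at 1.71 RPKM in ZIP10-positive cells and listed at 0 in ZIP10-negative cells.

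Transcript length moved with the ratio. Over 11112 compared genes with a length, the median log2 ratio relative to the median gene was 0.70 for transcripts under 1000 bases and -0.39 for those of 6000 bases or more. Spearman's rho between length and ratio was -0.32 over these genes and -0.33 over the 41 members, across genes that share both libraries. Relative to the median gene of the same length class, Tgfbi was still at 1.46, Acvr2b at 1.17, Id3 at 0.51, Ltbp1 at -1.25, Smad6 at -1.30 and Nog at -1.75 on the log2 scale. Id1, with 934 bases, came to 0.11 and Bmp3, with 6548 bases, to -0.69, while Inhba, with 1529 bases, came to -1.11. In this comparison 2 members were again at least 2-fold higher and 4 lower, with Inhba in place of Bmp3, against 9.96% higher and 12.6% lower of the 11112 genes. What made the ratio move with length was not tested.

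**Figure D3:**
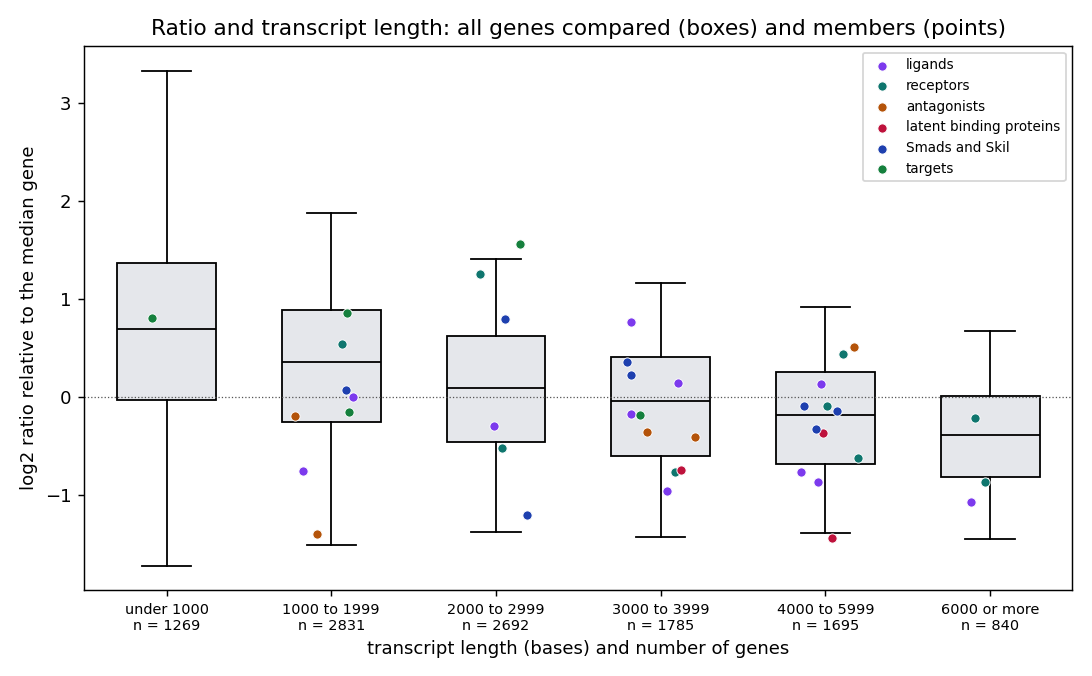
Log2 ratio of ZIP10-positive to ZIP10-negative cells relative to the median gene against transcript length class; boxes show the quartiles of all genes compared with whiskers at the 5th and 95th percentiles, and points the 41 members by class. Box medians run from 0.70 for the shortest to -0.39 for the longest transcripts; Tgfbi lies above its box's upper whisker and Ltbp1 below its lower whisker.

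Follicle and skin cell markers were present in both libraries. The 8 basal keratinocyte markers summed to 2360 RPKM in ZIP10-positive cells, against 800.1 RPKM in ZIP10-negative cells, 8 dermal papilla markers to 1573 RPKM (ZIP10-positive) and 737 RPKM (ZIP10-negative), 8 hair matrix and shaft markers to 312 RPKM (ZIP10-positive) and 214 RPKM (ZIP10-negative), and 7 inner root sheath markers to 679 RPKM (ZIP10-positive) and 367 RPKM (ZIP10-negative). Melanocyte markers summed to 285 RPKM (ZIP10-positive) and 202 RPKM (ZIP10-negative), endothelial markers to 24.7 RPKM (ZIP10-positive) and 3.99 RPKM (ZIP10-negative) with Emcn listed at 0 in both, and erythroid markers to 16377 RPKM in ZIP10-positive cells, against 283754 RPKM in ZIP10-negative cells. Egfl7 held 16.5 RPKM (ZIP10-positive) and 0.321 RPKM (ZIP10-negative) of the endothelial sums. All these sums are as deposited, where the median gene was itself 1.97-fold higher in ZIP10-positive cells. Relative to it the median log2 ratio was 0.28 for basal keratinocyte, -0.37 for dermal papilla and -0.55 for hair matrix and shaft markers. It was -0.37 for inner root sheath and -0.35 for melanocyte markers. The dermal papilla, a known source of noggin and Bmp4 in the follicle, had 1 of 8 markers above the median gene by 2-fold or more and 3 below it by as much. The part of these cell types in the members' values was not tested.

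**Figure D4:**
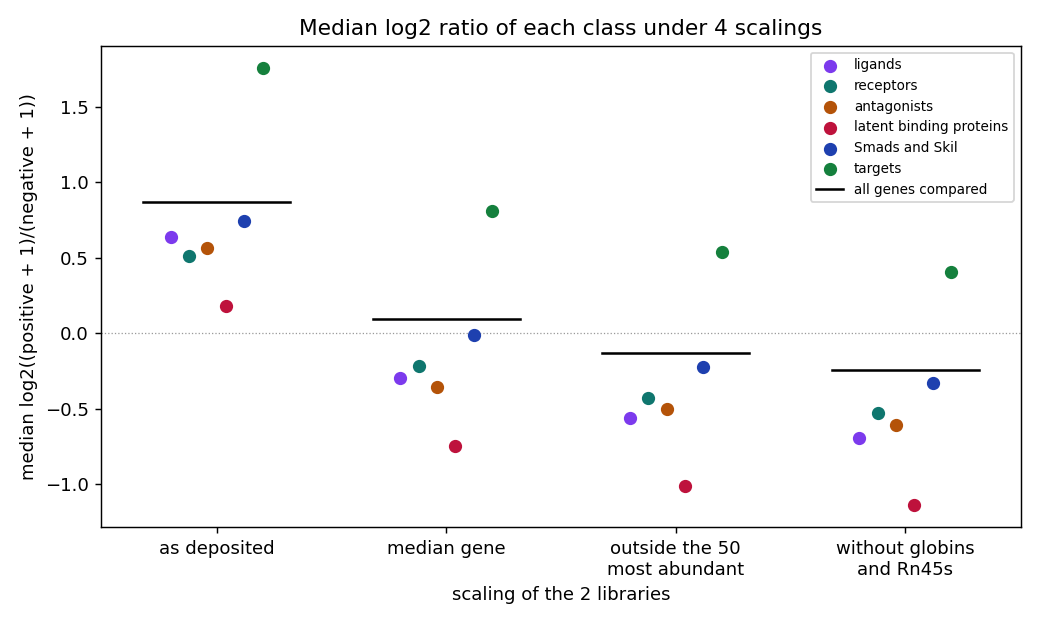
Median log2((RPKM + 1) ratio) of ZIP10-positive to ZIP10-negative cells for each class under 4 scalings of the libraries, with the median of all genes compared as a black line. The targets lie above and the latent binding proteins below that line under each scaling, while the zero point moves by 1.39 between the scalings.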

How the data were processed

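RNA of 2 sorted cell populations was compared, 1 library each. The authors deposited 1 table of RPKM values per gene symbol; per the submitters' processing notes the tools were TopHat, Cufflinks and cutadapt on build mm9, while no source used here states versions, annotation or strand setting. Both value columns were used. Each library started from 10 ng of RNA and was read in 50 bases from a single end, per the labels' protocols.

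Genes reaching 1 RPKM in a library entered as log2 of the RPKM ratio of positive to negative after a pseudocount of 1 was added to each, so the change of low genes is understated. The median gene is the median ratio of genes at 1 RPKM or more in both. Members and lists were chosen with earlier results of these data known. Named in full are members at 5 RPKM or more in a library, at least 2-fold from the median gene, or listed at 0 in 1 library only; of other lists, the most abundant. A value of 0 can be a failed estimate.

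Read numbers came from whole-number ratios of low values, found for 60.0% of 1389 genes at a tolerance of 0.0003%, against 0.0277% after rescaling, and from GENCODE M21 transcript lengths less 199 bases, the shortest linked to RefSeq. For 8 members both estimates were equal. Reads have no molecular identifiers. Python 3.11.15, pandas 2.3.3, numpy 2.4.6, scipy 1.17.1 and matplotlib 3.10.9 were used. Of the steps, only the median scaling and the 2-fold calls were tested on simulated counts, with the same transcript length for every gene.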

Additional observations from a re-analysis of the deposited data

How the results depend on the processing

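Without rescaling, 12 members were higher by 2-fold or more and 0 lower, and the median log2 ratio was 0.71 for all members, 0.64 for ligands, 0.51 for receptors, 0.56 for antagonists, 0.18 for latent binding proteins, 0.75 for Smads and Skil and 1.76 for targets. Scaling to genes outside the 50 most abundant gave 10 lower members (16.2% of all genes lower) and a median of -1.01 for latent binding proteins. Leaving globin genes and Rn45s out of the scaling gave 11 lower members (19.2% of all genes lower), -1.14 for latent binding proteins and 0.40 for targets. A pseudocount of 0.1 gave 4 higher and 7 lower members (20.6% and 16.1% of all genes), a pseudocount of 5 gave 1 and 2 (5.61% and 3.01%), and asking for 1 RPKM in both libraries left 1 higher (9.98%), as Acvr2b drops out. Relative to genes of the same length class, an alternative added after the data were seen, the median of the targets was 0.11. The other counts stayed within 1.5 times under the alternatives tried, and Tgfbi, Ltbp1, Nog, Smad6 and Bmp3 kept their direction in all of them. The other medians moved by less than the counting error of a typical single member, which is not the error of a median. Without globin genes and Rn45s the median still went from -0.18 to -0.56 for all members and from -0.29 to -0.69 for ligands. Against the same length class that of receptors went from -0.22 to 0.10. No paired analysis was possible because each group has 1 library. Some low members rest on few reads, such as Acvr2b, and sample-to-sample spread is unknown.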
